A study of Gadus morhua with 47 samples.

Results

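Liver slices of Atlantic cod (Gadus morhua) exposed to 1 µM benzo[a]pyrene (BaP) were compared with slices of the same fish that received only the vehicle dimethyl sulfoxide (DMSO). Slices were taken by their titles: 7 slices with BaP 1 µM and 8 with DMSO, 15 of the 47 libraries of the series. Precision-cut liver slices are sections of living tissue cut thin enough to survive in culture, so that 1 liver supplies a slice for each treatment. Other groups of the series received BaP at 10 nM, or the synthetic estrogen ethynylestradiol (EE2) at 10 nM or 1 µM. The remaining groups, Mix 10 nM and Mix 1 µM, received both compounds, each at the dose named. The number in a title is that of the fish. Each number carried a single sex, body weight and liver weight in every group, so that slices could be compared within fish. Fish 1, 2, 4, 5 and 7 were males, and fish 3, 6 and 8 females. They weighed 346 to 820 g, and the liver made up 4.03% to 12.4% of body weight. Fish 8 had a DMSO slice but no BaP 1 µM slice, which left 7 fish, 5 males and 2 females, with both. The sources used here give no age, strain or exposure time.

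BaP is a polycyclic aromatic hydrocarbon formed by incomplete combustion and found in crude oil and its residues. In vertebrates it binds the aryl hydrocarbon receptor, a transcription factor that rests in the cytoplasm with chaperone proteins. With a ligand bound, the receptor enters the nucleus, pairs with its partner ARNT and activates genes whose promoters or enhancers hold its recognition motif. The best known of these genes encode cytochrome P450 enzymes that oxidise the ligand itself, and in fish liver their induction is widely used as a marker of exposure to such compounds. Other known targets encode a repressor of the receptor and enzymes that conjugate the oxidised products. Which transcripts measured here belong to those genes is not stated, because 0 of the 22100 transcript identifiers matched the gene names used here (see the processing notes). Hepatocyte markers could not be checked for the same reason. Transcripts are therefore called by their coding length in bases. Identifiers are given for those with the largest and the next largest rise among the transcripts that passed the test described below.

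Libraries held 44 to 67 M mapped read segments (M, mega) with BaP 1 µM and 36.6 to 58.6 M with DMSO. Of the 15 libraries, DMSO of fish 2 and BaP 1 µM of fish 7 were unlike the other slices of their fish. Their TMM factors, which scale for the composition of a library, were 0.678 and 0.758, against 0.882 to 1.27 in the 13 others. Against the mean of the other slices of the fish, 34.9% and 48.7% of the 17824 transcripts tested differed at least 2-fold, compared with 4.34% to 17.7% in the others. The 17.7% was DMSO of fish 7, whose mean of other slices includes BaP 1 µM of fish 7, and the next highest was 12.1% (DMSO of fish 1). In both libraries longer transcripts were relatively low and shorter ones relatively high. The slope of the difference over log2 coding length was -0.35 for DMSO of fish 2 and -0.65 for BaP 1 µM of fish 7. In the others it was -0.14 to 0.32, with the 0.32 again in DMSO of fish 7. Results are given with and without this pair of libraries. What the length trend contributes to single results was tested only by removing it, as one of the alternatives described in the closing section. Its part in the values of a single fish, high or low, was not tested.

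With BaP 1 µM, 12 of 17824 transcripts rose and 0 fell (edgeR quasi-likelihood test with fish as a block, Benjamini-Hochberg adjusted p under 0.05), which is 0.0673% of those tested. The rises ranged from 0.62 to 6.35 on the log2 scale of CPM (counts scaled to the library, with TMM factors), with a median of 1.71, where the median over all tested transcripts was -0.01. They fell into 6 transcripts that rose at least 4-fold and 6 that rose by less, down to 1.54-fold. Most of the liver transcriptome changed little: 88.7% of the tested transcripts had a log2 fold change within 0.5 of 0. A log2 fold change of 1 or more was fitted for 164 transcripts and of -1 or less for 191, most of them not called. At an unadjusted p under 0.05 there were 663 higher and 574 lower transcripts, a total of 1237 that became 591 without BaP 1 µM of fish 7 and 2554 without DMSO of fish 2. With no change at all, a share of about 0.05 of the tests would pass that limit, which 1237 and 2554 exceed and 591 does not. Falls were called by other tools, 5 by DESeq2, 8 by limma-voom with sample quality weights and 1 by limma-voom with fish as a random effect, beside 26, 24 and 11 rises. The edgeR test itself called 6 falls when 4 libraries named below were left out, 1 without fish 8 and 1 in male fish only. A slice is a mixture of cells, so that more RNA per cell and more cells of a type cannot be told apart in these values.

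**Figure D1:**
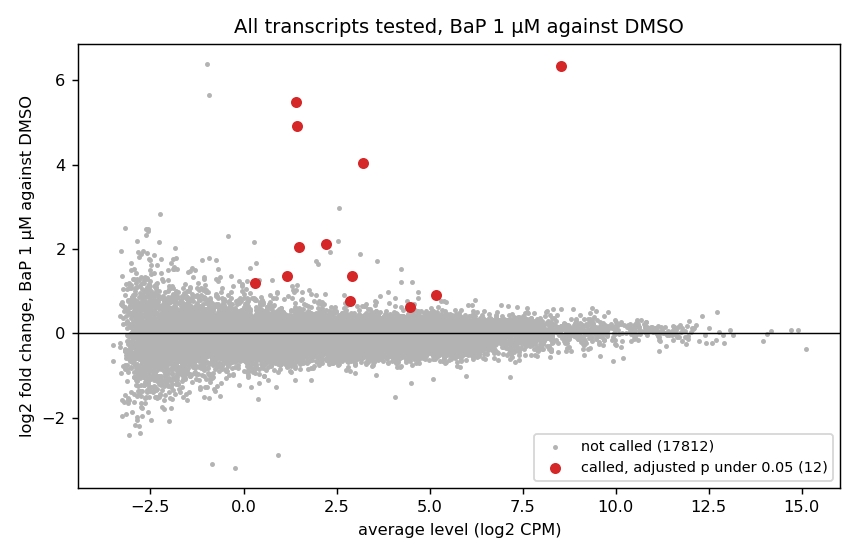
Log2 fold change of each of the 17824 transcripts tested (BaP 1 µM against DMSO, vertical axis) against its average level in log2 CPM (horizontal axis). Red points are the 12 transcripts that passed the edgeR test, all above 0; grey points are the others, which spread more widely at low levels.

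ENSGMOT00000000331.1, of 1560 coding bases, rose most. With DMSO its level was 9.32 CPM in fish 1, 20.2 in fish 2, 73.1 in fish 3, 39.8 in fish 4, 32.6 in fish 5, 30.9 in fish 6, 3.09 in fish 7 and 6.83 in fish 8. With BaP 1 µM it was 2808 CPM in fish 1, 1787 in fish 2, 996 in fish 3, 1303 in fish 4, 617 in fish 5, 1376 in fish 6 and 1099 in fish 7. Every BaP slice lay above every DMSO slice. The DMSO slices were spread over a wider relative range than the BaP slices, so that fish 7, with the lowest DMSO level, had the largest change (8.45 on the log2 scale) and fish 3, with the highest, the smallest (3.77). The fitted log2 fold change was 6.35 ± 0.56 (SE), an 81.7-fold rise, with an edgeR adjusted p of 6.11e-10, and 5.84 ± 0.55 without the 2 libraries. In the DMSO slices this transcript took 3.94e-04% to 0.00741% of the mapped counts, and in the BaP slices 0.0651% to 0.272%. Ranked by CPM per coding base among all tested transcripts, it stood between places 2107 and 12113 with DMSO and between 116 and 340 with BaP 1 µM.

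**Figure D2:**
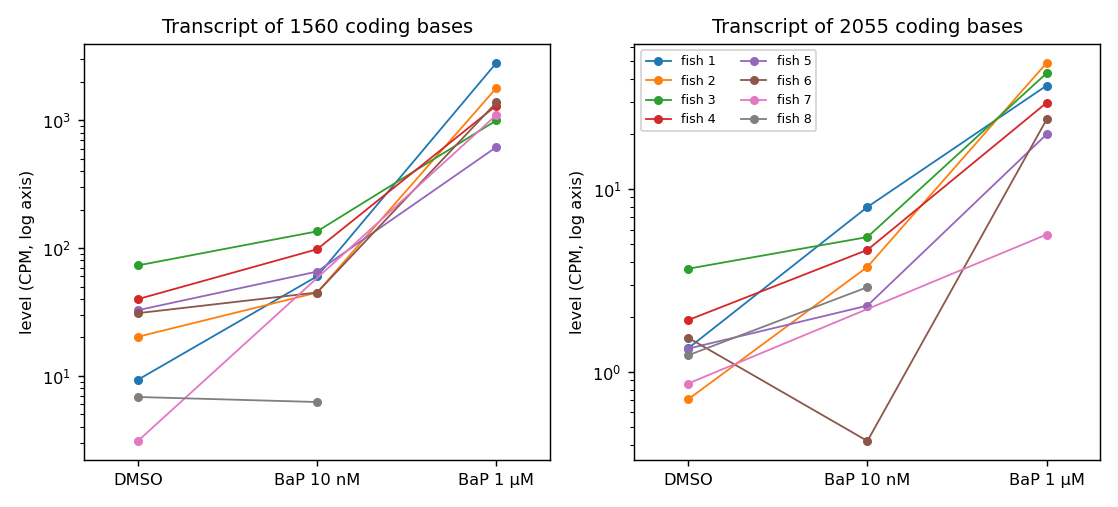
Level in CPM (log axis) of the transcripts of 1560 and 2055 coding bases in the DMSO, BaP 10 nM and BaP 1 µM slices, 1 line per fish. Fish 7 had no BaP 10 nM slice and fish 8 no BaP 1 µM slice; with BaP 1 µM all 7 fish lay above their own DMSO slice for both transcripts, and the 2055-base transcript was lowest in fish 7 (5.63 CPM).

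ENSGMOT00000000897.1, of 1182 coding bases, was close to silent without BaP and had the next largest rise of the 12. It had 17 counts in the DMSO slice of fish 1, 15 in fish 2, 7 in fish 3, 0 in fish 4, 2 in fish 5, 7 in fish 6, 14 in fish 7 and 28 in fish 8. The 0 counts of fish 4 allow a level of up to 0.0820 CPM before TMM scaling (3 counts, counting error only). With BaP 1 µM the counts were 1447, 754, 719, 169, 90, 631 and 88 in fish 1 to 7. The highest level, 28.1 CPM in fish 1, was far above the lowest, 1.27 CPM in fish 5, yet even that was above all DMSO slices. Its log2 fold change was 5.5 ± 0.70 (SE; edgeR adjusted p = 6.91e-06), and 6.10 ± 0.72 without the 2 libraries. It did not pass in limma-voom with fish as a random effect (adjusted p of 0.155).

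The transcript of 888 coding bases was also near 0 in all DMSO slices, between 0.025 CPM in fish 1 and 0.42 in fish 7. With BaP 1 µM it reached 40.4 CPM in fish 1, 5.28 in fish 2, 11.5 in fish 3, 6.02 in fish 4, 3.83 in fish 5, 1.58 in fish 6 and 5.70 in fish 7. Fish 1 stood well above the other fish, and the groups did not overlap. Its log2 rise was 4.91 ± 0.63 (SE; edgeR adjusted p = 6.91e-06). The call was lost in the fit of only the BaP 1 µM and DMSO libraries, at an edgeR adjusted p of 0.242, and at 0.0542 when that fit left out the 2 libraries.

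The transcript of 2055 coding bases lay between 0.71 and 3.66 CPM in the DMSO slices. With BaP 1 µM it was at 36.8 CPM in fish 1, 48.9 in fish 2, 43.0 in fish 3, 29.6 in fish 4, 19.9 in fish 5, 24 in fish 6 and 5.63 in fish 7. In 4 fish, fish 3 to 6, the change lay between 3.54 and 3.93 on the log2 scale, while fish 1 and 2 were above them at 4.73 and 6.03 and fish 7 below at 2.65. The fitted rise was 4.05 ± 0.35 (SE), 16.6-fold, with an edgeR adjusted p of 6.11e-10. Like the 1560-base transcript, it passed under all 25 alternatives tried.

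A pair of transcripts rose about 4-fold. The transcript of 918 coding bases stood at 1.48 CPM ± 0.73 (SD, n = 8) with DMSO and 6.51 CPM ± 2.74 (SD, n = 7) with BaP 1 µM, a log2 rise of 2.04 ± 0.25 (SE; edgeR adjusted p = 4.55e-06). Its highest DMSO slice (2.81 CPM, fish 3) was below its lowest BaP slice (3.70 CPM, fish 5). The transcript of 3087 coding bases, the longest of the 12, stood at 2.34 CPM ± 0.53 with DMSO (SD, n = 8) and at 11 CPM ± 5.72 with BaP 1 µM (SD, n = 7). In 6 of 7 fish it was higher, by 1.64 to 3.54 on the log2 scale. In fish 7 it was not: 2.56 CPM with DMSO and 2.47 with BaP 1 µM, a difference of -0.05 on the log2 scale. Long transcripts were low in that BaP library, and whether the length trend lowered this transcript there was not tested. The log2 fold change of the 3087-base transcript was 2.13 ± 0.32 (SE; edgeR adjusted p = 2.58e-04), and 2.27 ± 0.31 without the 2 libraries. In the fit of only these groups neither passed, with edgeR adjusted p values of 0.400 for the 918-base and 0.780 for the 3087-base transcript. When that fit left out the 2 libraries, the 3087-base transcript passed (edgeR adjusted p = 0.00241) and the 918-base transcript did not (0.269). In male fish only, the 3087-base transcript did not pass (edgeR adjusted p = 0.0935) and the 918-base transcript did (0.00254).

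Together, 5 of the 6 larger rises had groups that did not overlap, and no other of the 17824 tested transcripts was higher in every BaP slice than in every DMSO slice (5, 0.0281%). None was lower in every BaP slice (0, 0%). At least 2-fold higher in all 7 fish were 4 transcripts (0.0224%), the 4 with the largest fitted values among the 12. The separation of the groups and the test used the same counts, so that the one does not add to the other.

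The 6 smaller rises were transcripts already expressed in the DMSO slices, at means of 0.799 to 31.9 CPM, and in each the BaP and DMSO slices overlapped. Each of the 6 rose by under 2-fold in 2 or more fish. Within fish, all 6 were higher in 7 of 7, as were 171 of all tested transcripts (0.959%). The call used the same counts with fish as a block, so this agreement does not add to it. None of the 6 passed in the fit of only the BaP 1 µM and DMSO libraries (edgeR adjusted p of 0.997 for each). Without fish as a block, 0 of the 6 were called. The transcript of 1467 coding bases had a log2 rise of 1.37 ± 0.24 (SE; edgeR adjusted p = 0.00376). Its paired change was 1.87, 2.18 and 2.22 in fish 1, 2 and 7 and 0.48 to 0.81 in fish 3 to 6. In fish 7 it went from 11.4 to 53.3 CPM, where the other BaP slices had 4.77 to 17.6. The transcript of 708 coding bases rose by 1.36 ± 0.26 (SE; edgeR adjusted p = 0.0139). It was raised most in fish 1, 3 and 7 (2.03 to 2.27) and least in fish 2 (0.40). In fish 1 its DMSO slice, at 0.747 CPM, was below all 4 other slices of that fish (2.69 to 4.14 CPM), those with EE2 alone included. The same was true of the transcripts of 1467, 645 and 1671 coding bases. Among the larger rises it was true of those of 888, 2055 and 918 coding bases. In fish 1 the 918-base transcript was at 0.947 CPM with DMSO, 1.86 with EE2 10 nM and 2.98 with EE2 1 µM. In the DMSO library of fish 1, 12.1% of the tested transcripts were at least 2-fold from the mean of its other slices. Its limma-voom quality weight, 0.319, was the lowest of the 13 libraries other than DMSO of fish 2 and BaP 1 µM of fish 7. What this library adds to the changes in fish 1 was not tested.

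The transcript of 645 coding bases, the least abundant of these, stood at 0.799 CPM ± 0.480 with DMSO (SD, n = 8) and at 1.98 CPM ± 1.20 with BaP 1 µM (SD, n = 7), a log2 rise of 1.21 ± 0.25 (SE; edgeR adjusted p = 0.0334). The most abundant, of 993 coding bases, stood at 31.9 CPM ± 18 with DMSO (SD, n = 8) and at 57.8 CPM ± 49 with BaP 1 µM (SD, n = 7), and its rise of 0.91 ± 0.16 (SE) had an edgeR adjusted p of 0.00376. Much of its spread lay between fish, since fish 7 was highest in both groups with 64.3 and 164.0 CPM and fish 4 lowest in both with 8.71 and 21.4 CPM. The transcript of 1671 coding bases rose by 0.76 ± 0.16 (SE; edgeR adjusted p = 0.0334). The smallest change was that of the transcript of 936 coding bases, at 19.7 CPM ± 4.08 (SD, n = 8) with DMSO and 30.8 CPM ± 7.99 (SD, n = 7) with BaP 1 µM. Its log2 rise was 0.62 ± 0.12 (SE; edgeR adjusted p = 0.00751), and its paired change was 0.15 to 0.71 in fish 1 to 6 and 1.54 in fish 7. Shorter transcripts were relatively high in the BaP 1 µM library of fish 7. Whether the length trend raised the transcripts of 645, 708, 936 and 993 coding bases there was not tested.

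**Figure D3:**
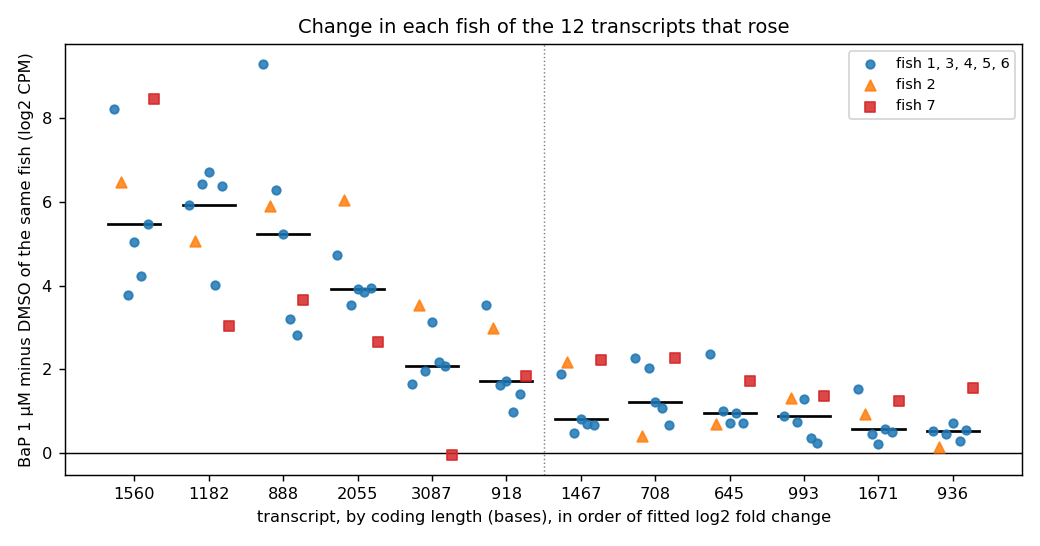
Difference in log2 CPM between the BaP 1 µM and the DMSO slice of each fish (vertical axis) for the 12 transcripts that rose, named by coding length and ordered by fitted change; black bars are medians over 7 fish, and the dotted line divides the 6 rises of at least 4-fold from the 6 smaller ones. All points lie above 0 except fish 7 for the 3087-base transcript (-0.05), and fish 7 (squares) is high for most of the smaller rises. In its BaP 1 µM library shorter transcripts were relatively high and longer ones low, and the part of this in single points was not tested.

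Without BaP 1 µM of fish 7 and DMSO of fish 2 the number of calls was the same, but which smaller rises were called changed. Without both, 12 of 17783 transcripts rose (0.0675%) and 0 fell. At an unadjusted p under 0.05 there were 390 higher and 386 lower, together below the share of 0.05 that no change would give. All 6 larger rises and 3 of the 6 smaller ones, of 1467, 993 and 936 coding bases, were among those 12. The transcripts of 708, 645 and 1671 coding bases were not, with edgeR adjusted p values of 0.0520, 0.218 and 0.201, although their log2 fold changes of 1.32, 1.10 and 0.70 were close to those with the libraries. Leaving out all slices of fish 7 ended the calls of all 6 smaller rises (edgeR adjusted p of 0.0505 to 0.259). In that fit 10 transcripts rose, of which 6 were among the 12. Without fish 4, 1 of the 6 smaller rises passed, and 7 transcripts rose in all. The larger 6 passed each time that 1 fish was left out.

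In place of those 3, the transcripts of 3555, 3525 and 3228 coding bases were called without the 2 libraries, with log2 rises of 1.22 ± 0.21, 1.20 ± 0.21 and 1.15 ± 0.24 (SE) and edgeR adjusted p values of 0.00239, 0.00353 and 0.0451. They were at 0.67 to 3.53 CPM in the DMSO slices. For the 3555-base transcript the level rose from 0.95 to 3.9 CPM in fish 1, 1.23 to 1.92 in fish 3, 1.4 to 2.8 in fish 4, 3.49 to 7.64 in fish 5 and 2.33 to 4.64 in fish 6. Fish 7 went the other way, from 2.3 to 0.70 CPM. All 3 were lower in fish 7, with paired changes between -1.66 and -1.57 on the log2 scale, in the library in which long transcripts were low. Whether the length trend lowered these 3 transcripts there was not tested. Over the 47 libraries their log2 CPM correlated with r of 0.967 to 0.993, a description over libraries that share fish. Transcripts this alike in length and level may share reads, so the 12 calls of that fit may hold fewer than 3 separate responses among these. With both libraries in, their edgeR adjusted p values were 0.167, 0.167 and 0.318.

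The agreement over fish was read as the direction of the paired change in each fish. Of the 12 rises, 11 were higher in 7 of 7 fish and 1 in 6 of 7. These 12 were called with fish as a block on the same counts, so their agreement does not add to the calls. Over all tested transcripts, 171 were higher in all 7 fish (0.959%) and 108 were lower in all 7 (0.606%). Over fish 1, 3, 4, 5 and 6, which leave out the pairs with the 2 libraries, 763 were higher in every fish (4.28%) and 764 lower in every fish (4.29%). In these 5 fish, 8 transcripts were at least 2-fold higher in each (0.0449%) and 1 was at least 2-fold lower in each (0.00561%).

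The pairs of slices differed most in how far the rest of the transcriptome was spread between them. At least 2-fold apart were 6.45% to 14.5% of the transcripts in fish 1, 3, 4, 5 and 6, 33.4% in fish 2 and 53.8% in fish 7. Those 2 pairs hold the libraries unlike the other slices of their fish. From the mean of those other slices, 34.9% differed at least 2-fold in DMSO of fish 2, against 6.75% in its BaP 1 µM slice. In fish 7 it was 48.7% in the BaP 1 µM slice and 17.7% in DMSO. Each of these means includes the other slice of the pair. In fish 2 more transcripts were higher with BaP 1 µM (3781) than lower (2178), and in fish 7 fewer (4356 against 5232). The median change of the 12 transcripts that rose was 1.03 to 2.58 on the log2 scale over the 7 fish, with the highest in fish 2 and the lowest in fish 5. The correlation of the 2 slices' deviations from their group means was 0.58 to 0.76 across transcripts in the 5 fish, 0.02 in fish 2 and 0.42 in fish 7.

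**Figure D4:**
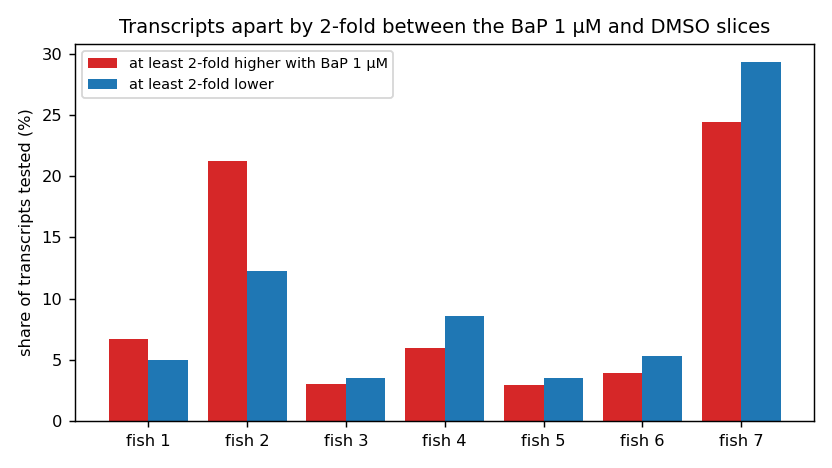
Share of the 17824 tested transcripts (vertical axis, %) that were at least 2-fold higher (red) or lower (blue) in the BaP 1 µM slice than in the DMSO slice, for each fish with both. Fish 2 and fish 7, with 33.4% and 53.8% in total, stand far above the other 5 fish (6.45% to 14.5%). Their pairs hold the libraries unlike the other slices of their fish, DMSO of fish 2 and BaP 1 µM of fish 7.

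The same dose of BaP was also given together with EE2. Mix 1 µM against EE2 1 µM sets other libraries against each other than the comparison with DMSO, though the fish are shared. The fit of all libraries, however, took its fish terms and its spread from the DMSO and BaP 1 µM libraries as well. Its values for this contrast are therefore not independent of the comparison with DMSO. Only the separate fits of each pair of groups had no library in common. In that contrast of the fit of all libraries, the 6 larger rises were higher by 1.82 to 5.52 on the log2 scale. All passed the edgeR test, and no other tested transcript passed as higher there (6 of 17824, 0.0337%). The 1560-base transcript differed by 5.40 ± 0.61 (SE), the 1182-base transcript by 5.52 ± 0.83, the 888-base transcript by 4.35 ± 0.70 and the 2055-base transcript by 3.59 ± 0.39. With separate fits of each pair of groups, none of these passed in Mix 1 µM against EE2 1 µM (edgeR adjusted p of 0.758), with log2 values of 1.87 to 5.45 for the 6. In the Mix 1 µM slice of fish 8, another library unlike the other slices of its fish, the 1182-base and 888-base transcripts had no counts. The 1560-, 2055- and 918-base transcripts were higher with Mix 1 µM in 5 of the 5 fish with both slices. The 1182-, 888- and 3087-base transcripts were higher in 4 of 5, with lowest paired changes of -3.45, -1.84 and -0.11 on the log2 scale.

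Of the 6 smaller rises, 0 passed with EE2 present (edgeR adjusted p of 0.787 to 0.879), and 5 were above 0, by 0.26 to 0.78, where 49.1% of all tested transcripts were above 0. The 708-base transcript was at -0.15 ± 0.30 (SE) there and higher in 1 of 5 fish, against 1.36 ± 0.26 without EE2. The difference between these effects was -1.52 ± 0.40 (SE), with an unadjusted p of 5.07e-04 and an edgeR adjusted p of 1 over all transcripts. It subtracts the effect without EE2, for whose high values the transcripts were called, so values below 0 were favoured in advance. The 708-base transcript also had the lowest difference of those called. Its unadjusted p allows for neither choice. For the other 11 transcripts the difference lay between -0.95 and 0.03, and all had an edgeR adjusted p of 1.

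**Figure D5:**
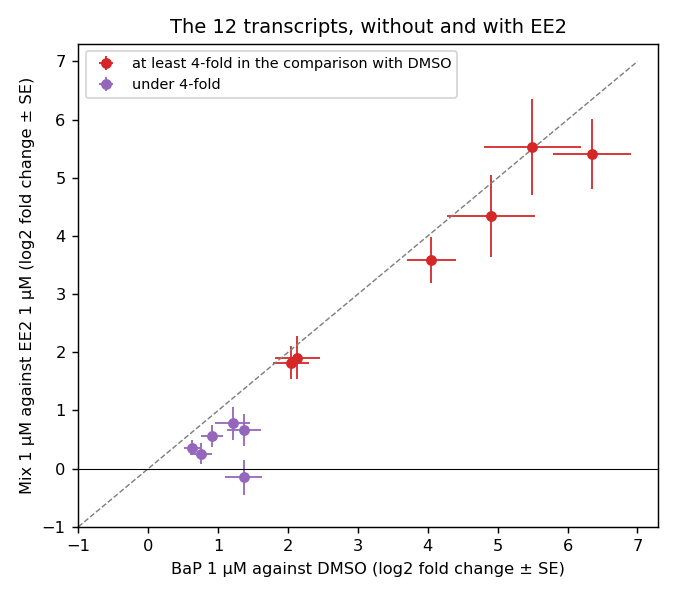
Log2 fold change ± SE of the 12 transcripts with BaP 1 µM against DMSO (horizontal axis) and with Mix 1 µM against EE2 1 µM (vertical axis); the dashed line marks equal values. The 6 larger rises (red) lie between 1.82 and 5.52 on the vertical axis and the 6 smaller ones (purple) between -0.15 and 0.78.

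With BaP 10 nM against the same DMSO slices, the 12 transcripts had log2 fold changes of 0.11 to 1.56, each with an edgeR adjusted p of 1. The edgeR test called 0 of all tested transcripts there (0%). At an unadjusted p under 0.05 there were 281, below the share of 0.05 that no change would give. Because the 12 were called against the same DMSO slices, their direction there is not independent of that call. They were higher than DMSO in 3 to 6 of 7 fish. The 1560-base transcript was at 60.1 CPM in fish 1, 44.8 in fish 2, 135 in fish 3, 97.9 in fish 4, 65.4 in fish 5, 44.9 in fish 6 and 6.24 in fish 8. Each of these but fish 8 lay above the DMSO slice of its fish, and all lay below every BaP 1 µM slice. In fish 6 the rise over DMSO held only after TMM scaling, with 0.00263% of the mapped counts against 0.00295% with DMSO. The BaP 10 nM library of fish 6 was unlike the other slices of its fish, with a TMM factor of 0.587. The 888-base transcript was at 10.3 CPM in fish 1 and 0.13 to 0.88 in the other 6 fish. Fish 1 also had its highest level with BaP 1 µM, but in that fish it was raised without BaP too, at 3.11 CPM with EE2 10 nM and 3.47 CPM with EE2 1 µM, against 0.025 CPM with DMSO.

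No transcript passed for a difference in the BaP 1 µM effect between male and female fish (edgeR test of the interaction, 0 of 17824, 0%). At an unadjusted p under 0.05 there were 297, below the share of 0.05 that no change would give, and DESeq2 also called 0. With 2 female fish the intervals were wide. For the 1560-base transcript the change was larger in males by 2.13 ± 1.00 (SE) on the log2 scale. Its unadjusted p was 0.0418 and its edgeR adjusted p 1. Its paired change was 3.77 and 5.47 in the females and 4.24 to 8.45 in the males, so the sexes overlapped.

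The lowest adjusted p among lower transcripts was that of a transcript of 3651 coding bases, at 65.6 CPM ± 13.2 (SD, n = 8) with DMSO and 41.9 CPM ± 18.2 (SD, n = 7) with BaP 1 µM. Its log2 fold change was -0.80 ± 0.18 (SE; edgeR adjusted p = 0.0753). It was lower in 7 of 7 fish, with paired changes from -0.26 in fish 3 to -1.95 in fish 7, the library in which long transcripts were low. Whether the length trend lowered this transcript in fish 7 was not tested. Without the 2 libraries its value was -0.72 ± 0.18 (SE; edgeR adjusted p = 0.218). Leaving out 4 libraries unlike the other slices of their fish (the 2 above, BaP 10 nM of fish 6 and Mix 1 µM of fish 8), it passed at -0.77 ± 0.15 (SE; edgeR adjusted p = 0.0123). In that fit 17 transcripts rose and 6 fell, 0.128% of those tested. The 6 falls, of 690 to 3651 coding bases, were modest, at -0.51 to -0.90 on the log2 scale. Fish 1, 3, 4, 5 and 6 are the fish with both slices in that fit, and all 6 were lower in each of them, as were 4.29% of all tested transcripts. In the pairs it did not use, 5 of the 6 were higher in fish 2 or fish 7, such as the 1485-base transcript by 2.25 on the log2 scale in fish 2 and the 738-base transcript by 0.50 in fish 7. They had values in Mix 1 µM against EE2 1 µM between -0.64 and 0.07. The transcript with the highest fold change of all, of 180 coding bases, was not called: its log2 value was 6.39 ± 1.29 (SE; edgeR adjusted p = 0.0539), and its level with BaP 1 µM was 2.25 CPM ± 5.64 (SD, n = 7).

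The coding lengths of the 12 transcripts ran from 645 to 3087 bases with a median of 1087.5, where the median of all tested transcripts was 1137. Their levels were on the low side: the median of their DMSO means was 1.96 CPM, against 7.27 CPM over all tested transcripts. With DMSO, 3 of the 12 had a mean under 1 CPM (25%), compared with 21.5% of all tested transcripts.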

How the data were processed

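Total RNA was treated with DNase and sequenced as stranded mRNA libraries, per the labels' protocols. Per the submitters' processing notes, the authors used HISAT2 2.1.0 and SAMtools 1.4.1 after or beside FastQC 0.11.5; the sources used here name no build or options. A deposited table holds raw counts of mapped segments for 22100 transcripts with their lengths, which are multiples of 3 for 99.99% and so are called coding lengths. Both mates can count, and near-identical transcripts may share reads. The row of segments placed nowhere (41.8% to 57.8% of a library) was dropped.

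Counts were fitted in R 4.3.3 by edgeR 4.0.16 with TMM factors, the default expression filter by group (minimum count 10, total 15; 17824 transcripts kept), and treatment and fish as terms over 47 libraries. SE is the fold change divided by the root of F. Levels are TMM-scaled CPM; log2 CPM used a prior count of 2. Alternatives used limma 3.58.1 and DESeq2 1.42.0. The fit was also run on simulated counts drawn from its own fitted values and spread, with no length trend in single libraries. That run does not cover libraries unlike the other slices of their fish. Same-numbered slices were paired because 8 of 8 fish numbers carried 1 sex, body weight and liver weight; their deviations correlated with r of 0.02 to 0.76 over 7 fish.

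The name table for assembly gadMor3.0 matched 0 identifiers, so the pathway and cell marker lists could not be applied. The naming rule allowed at most 2 identifiers per direction, those with the largest change among calls averaging at least 0 log2 CPM with 1 direction in all but at most 1 fish; none fell. Comparisons, members and rules were chosen with earlier results of these data known. Transcripts given by length were chosen after their values were seen. Floors cover counting error only, whereas each SE also includes the spread between libraries as estimated in the fit.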

Additional observations from a re-analysis of the deposited data

Results flagged for a closer look

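In 36 groups of values (the 12 transcripts that rose, each with DMSO, with BaP 1 µM and as the paired change), 3 had a sample far from the others, where chance gives about 1 in 20. These groups are not independent, since the paired changes are made of the same values, and an excess over chance was not tested. All 3 were fish 7, whose BaP 1 µM library was unlike the other slices of that fish. With BaP 1 µM the 2055-base transcript was at 2.50 log2 CPM in fish 7, and the nearest other fish was at 4.32. The 3087-base transcript was at 1.33 log2 CPM in fish 7, and the nearest other fish at 3.08. The paired change of the 936-base transcript was 1.54 on the log2 scale in fish 7, and the nearest other fish had 0.71.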

How the results depend on the processing

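Of 300 values of the 12 transcripts under 25 alternatives, 234 stayed past the threshold, 66 kept their direction without passing it and none turned. The count of calls, 12 as reported, was 31 with DESeq2 (26 rises, 5 falls), 32 with limma-voom and sample quality weights (24 and 8), 23 without the 4 libraries (6 falls), 6 in male fish (5 rises, 1 fall), and 3 rises in the fit of only these groups, 4 when that fit left out the 2 libraries. Without the replicate block it was 6, the 6 larger rises. With DESeq2 and without the 2 libraries, an alternative added after seeing the data, it was 21, with 3 falls. In limma-voom with a random fish effect 1 fell. Removing the length trend gave 16 rises, 11 of them among the 12. The 645-base transcript was the one not called there (edgeR adjusted p = 0.0529). Leaving out 1 library or 1 fish gave 7 to 15 calls, 7 to 15 rises (7 to 10 when 1 fish was left out) and 0 to 1 falls. All 6 larger rises were called in each of these, and 0 to 4 of the smaller ones. Transcripts with 1 direction in every fish numbered 279 over 7 fish and 1527 over the 5 fish other than 2 and 7, where fewer fish have to agree. For the other moves the cause was not tested. The remaining alternatives (RLE factors, other filters, a robust fit) gave 12 or 13 calls, with all 12 among them. Depth limits the transcripts near 0 with DMSO, where 3 counts are 0.0512 to 0.0820 CPM before TMM scaling.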

Other observations

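Under the 25 alternatives and the reported fit, 38 transcripts other than the 12 were called at least once, 25 as rises and 13 as falls. Of the falls, 6 were called under 2 or more settings, at most 6 for 1 transcript, that of 3651 coding bases. Another transcript close in length and level to those of 3555, 3525 and 3228 coding bases, of 3537 bases, had a log2 rise of 1.14 ± 0.24 (SE) without the 2 libraries, at an edgeR adjusted p of 0.0520, and 1.16 ± 0.23 without the 4 libraries, at an edgeR adjusted p of 0.0171.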
